A study of Harpegnathos saltator with 36 samples.

Results

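In the ant Harpegnathos saltator, 150 genes were examined whose transcript levels set gamergates apart in the same direction in the brain and in the ovary. They were chosen on the measured values themselves. A gene qualified if its mean over the 12 libraries of each tissue was at least 5 counts per 1000000 (CPM, relative to the total count of that library), if all 4 gamergate brains lay above, or all lay below, all 4 worker brains, and if all 4 gamergate ovaries lay beyond all 4 revertant and all 4 worker ovaries in that same direction. Of 12654 genes counted, 7785 passed the CPM minimum in both tissues and 259 qualified. The 150 with the largest smaller gap were kept, where the gap is the distance on the log2(CPM + 1) scale between the gamergate library nearest to the others and the library of the others nearest to gamergates, and the smaller one is that of the tissue in which the groups came closer. Of these, 38 lay higher in gamergates and 112 lay lower. The genes for vitellogenin, arylphorin subunit alpha, the EGF receptor and its ligand Vein were left out of the list by the rule, and 1 of these 4 would have met it.

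Gamergates are workers that, in a colony without a queen, win a dueling tournament, begin to lay eggs and take on queen-like behavior. Revertants are mature gamergates that were isolated and then moved into an established colony with its own reproductive females, where they were policed by nestmates and stopped laying eggs. Workers of similar age that had not become reproductive completed the design. All ants were 6 months old. The central brain without the optic lobes and the whole ovary were dissected from single ants, and each caste had 4 libraries per tissue. The labels do not say whether a brain and an ovary library came from the same ant. The revertants had lived in a different colony from the other castes, so colony cannot be told apart from caste in any comparison that involves them.

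Castes of an ant colony share a genome, and a change of caste in the adult is accompanied by changes in gene expression in many tissues. Juvenile hormone and ecdysteroids, hormones that circulate in the hemolymph and reach both brain and ovary, act through nuclear receptors and transcription factors such as Krueppel homolog 1. Signals from receptor tyrosine kinases pass through small GTPases and kinase cascades to transcription factors of the ETS family and to the repressor capicua. In the ovary, egg production depends on the division of germ cells and follicle cells and on nurse cells that replicate their DNA many times over and load the oocyte with ribosomes, RNA and protein.

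Total counts ranged from 1660576 to 1799316 in gamergate brains, from 4115800 to 12917125 in revertant brains and from 1339043 to 4926716 in worker brains. In ovaries they ranged from 5354569 to 23882325 in gamergates, from 1663266 to 7391217 in revertants and from 1863023 to 7519671 in workers. All gamergate brains and worker brains 2 and 4 held fewer than 3500000 counts, and all revertant brains and worker brains 1 and 3 held more, a split called library size class here. A level of 5 CPM was about 6.7 reads in the smallest brain library of workers and 8.3 reads in the smallest of gamergates, and 21 of the 150 genes had fewer than 10 reads in at least 1 library. Neuronal markers, 7 genes with names of neuronal proteins, summed to 2196–2443 CPM in gamergate brains, 3330–4051 CPM in revertant brains and 2556–3631 CPM in worker brains, and to between 394 and 662 CPM in ovaries. The 4 germline markers summed to 2761–3174 CPM in gamergate ovaries, 1306–3442 CPM in revertant ovaries and 1739–3140 CPM in worker ovaries, against 346–544 CPM in brains. Yolk and fat body genes, a list of 6 that includes vitellogenin and so is dominated by it, summed to 16657.5–64069.9 CPM in gamergate brains, 442–2924 CPM in revertant brains and 217–2372 CPM in worker brains. Muscle markers, 7 genes, summed to 128–147 CPM in gamergate ovaries, 296–836 CPM in revertant ovaries and 305–1708 CPM in worker ovaries. No marker was at 0 in every library of a tissue. The part of these cell types in the results was not tested, and in whole tissues fewer cells of a type and less RNA per cell cannot be told apart.

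The set was weighted toward genes that were lower in gamergates. Among the 7785 genes, gamergate brains lay above all worker brains for 332 genes (4.26%) and below them for 419 genes (5.38%), and gamergate ovaries lay above all other ovaries for 1355 genes (17.4%) and below them for 1887 genes (24.2%). Of the 419 genes lower in gamergate brains, 191 (45.6%) were also lower in gamergate ovaries and 41 (9.79%) were higher there. Of the 332 genes higher in gamergate brains, 69 (20.8%) were also higher in gamergate ovaries and 70 (21.1%) were lower there. The share that moved alike was thus above the ovary background for lower genes and close to it for higher genes. The balance depended on scaling. When CPM were rescaled with TMM factors (trimmed mean of M-values, which sets the bulk of genes level between libraries), 130 genes qualified as higher and 114 as lower in gamergates, in place of 69 and 190. Of the genes lower in gamergate brains, 29.1% were then lower in gamergate ovaries, against 16.9% of all genes, and of those higher in gamergate brains 33.1% were higher in gamergate ovaries, against 29.1% of all genes. Among the 150 genes, 36 of the 38 higher and 74 of the 112 lower ones still met the rule after rescaling. Leaving out a library loosens the rule, since fewer libraries then have to stay apart. Without worker brain 4, 491 genes qualified instead of 259.

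**Figure D1:**
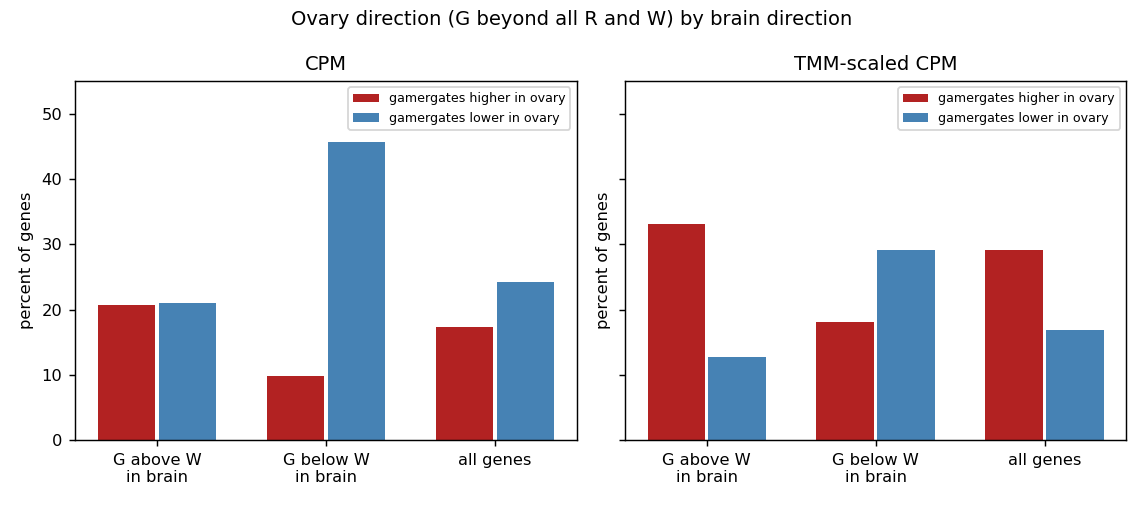
Percent of genes for which gamergate ovaries (G) lay above (red) or below (blue) all revertant (R) and worker (W) ovaries, for genes with G above W in brain, genes with G below W in brain and all genes of at least 5 CPM in both tissues; left, CPM, and right, TMM-scaled CPM. With CPM the blue bar reached 45.6% for genes lower in gamergate brains, against 24.2% for all genes; with TMM-scaled CPM these were 29.1% and 16.9%.

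Differences were larger in the ovary than in the brain. On the log2(CPM + 1) scale, the 112 lower genes had a median difference between gamergates and workers of −0.55 in the brain (range −2.42 to −0.26) and of −1.33 in the ovary (range −5.92 to −0.39), and 106 of them differed more in the ovary. The 38 higher genes had medians of 0.51 in the brain (range 0.28 to 2.23) and 0.89 in the ovary (range 0.33 to 4.45), and 33 of them differed more in the ovary. These values chose the genes and are given as a description. The lower genes also tended to be brain genes, with 77 of 112 (68.8%) having a higher mean CPM in brain than in ovary, against 2837 of the 7785 genes (36.4%). The same held for 58.9% of all genes lower in gamergate ovaries and 57.3% of those lower in gamergate brains. Of the 38 higher genes, 3 (7.89%) had the higher mean CPM in brain, against 11.7% of all genes higher in gamergate ovaries.

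**Figure D2:**
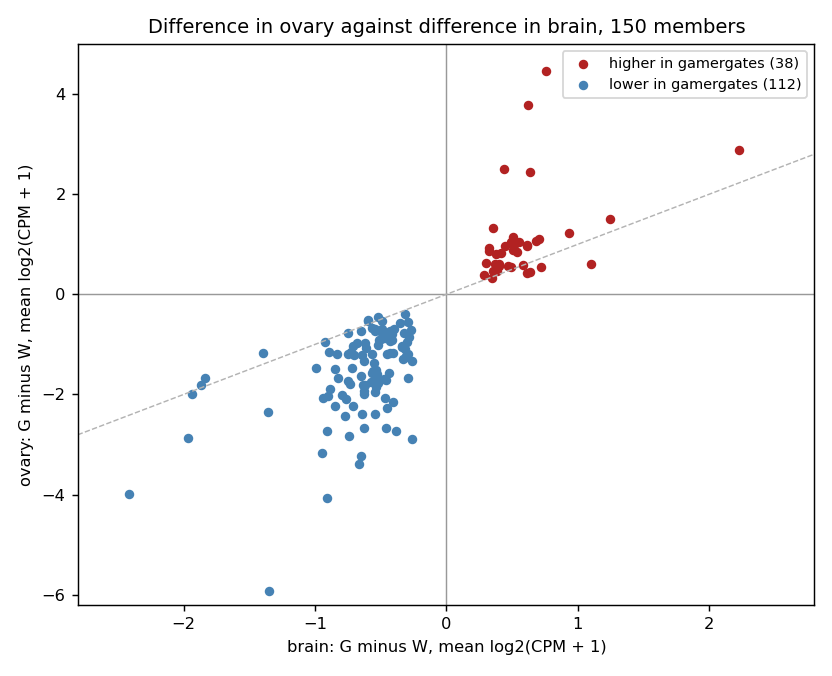
Difference between gamergates (G) and workers (W) in ovary (vertical axis) against that in brain (horizontal axis), as the difference of means of log2(CPM + 1) over 4 libraries each; each point is 1 of the 150 genes, red higher and blue lower in gamergates, and the dashed line marks equal differences. Most points lay farther from 0 in ovary than in brain, 106 of 112 blue and 33 of 38 red ones.

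Transcription factors were among the leading genes lower in gamergates. Krueppel homolog 1-like (LOC112589664), a relative of the zinc finger factor induced by juvenile hormone, had the second largest smaller gap of the whole set. Its level was 6.22, 7.83, 14.5 and 9.13 CPM in gamergate brains, 90.7, 83.9, 64.02 and 58.1 CPM in revertant brains and 85.3, 32.3, 50.02 and 54.5 CPM in worker brains. Gamergate ovaries had 7.47, 7.097, 8.79 and 5.204 CPM, revertant ovaries 188, 87.8, 49.3 and 75.8 CPM and worker ovaries 152, 206, 42.02 and 195 CPM. Every gamergate library thus lay under every other library of its tissue, and the revertants overlapped the workers in both tissues. The revertant brains took no part in the choice of genes, although the gamergate brains they were compared with did. In brain the log2 fold change of gamergates over revertants was −3.15 ± 0.24 (standard error, n = 4 each, edgeR quasi-likelihood test with Benjamini-Hochberg adjustment over 8987 genes, adjusted p = 4.53e-06), and with a term for library size class it was −2.24, adjusted p = 0.0345.

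HR38 (LOC105185653), a nuclear receptor that in Drosophila takes part in ecdysteroid signaling and is induced by neuronal activity, was at 30.6, 26.5, 25.6 and 33.1 CPM in gamergate brains, 90.4, 65.2, 76.1 and 54.4 CPM in revertant brains and 87.3, 73.1, 70.5 and 79.2 CPM in worker brains. In ovaries it was at 6.77, 5.23, 10.4 and 7.62 CPM in gamergates, 19.8, 20.97, 16.3 and 29.3 CPM in revertants and 19.6, 23.7, 15.3 and 13.96 CPM in workers. In both tissues gamergates were lowest, and revertants overlapped workers. The brain log2 fold change of gamergates over revertants was −1.48 ± 0.17 (adjusted p = 4.44e-05, edgeR) and −1.18 with the size class term, where it missed the threshold (adjusted p = 0.0592). MEF2 (LOC105192578), a MADS-box factor of muscle and neurons, was at 472, 479, 394 and 426 CPM in gamergate brains, 841, 695, 683 and 697 CPM in revertant brains and 642, 807, 654 and 676 CPM in worker brains. In ovaries MEF2 had 59.9, 50.6, 77.5 and 70.1 CPM in gamergates, 168, 157, 107 and 221 CPM in revertants and 182, 228, 176 and 215 CPM in workers. Its gamergate libraries did not overlap the others in either tissue, and the brain log2 fold change over revertants of −0.89 ± 0.10 (adjusted p = 3.11e-05, edgeR) was −0.84 with the size class term (adjusted p = 0.0323). The ovary values of MEF2 stood beside lower muscle markers in gamergate ovaries, given above.

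Of 10 transcription factors and coactivators, 9 lay lower and 1 lay higher in gamergates, and this and the other groups by role were made after the genes and their directions were known. Besides these 3 the lower ones were pointed, the ETS factor that acts below MAPK, capicua, the repressor that MAPK relieves, YAP1, the coactivator of the Hippo pathway, fruitless, a factor of sexual behavior in Drosophila, and zinc finger proteins 395 and 664-like. Zinc finger protein 395 (LOC105190405) was at 61.7, 56, 46.7 and 47.9 CPM in gamergate brains, 144, 159, 137 and 119.8 CPM in revertant brains and 151, 81.7, 124 and 82.2 CPM in worker brains. Pointed (LOC105192208) had 34.9, 37.7, 46.8 and 37.1 CPM in gamergate ovaries, 187, 153, 109.5 and 177 CPM in revertant ovaries and 146, 166, 84.2 and 129 CPM in worker ovaries. In brain its separation was narrower, with 99.02, 94.6, 84.5 and 98.1 CPM in gamergates, 117, 135, 144 and 109 CPM in revertants and 139.8, 118, 130.4 and 137 CPM in workers. All 9 passed the edgeR test (adjusted p under 0.05) as lower in gamergate than in revertant brains, with log2 fold changes between −3.15 and −0.56. So did 111 of the 112 lower genes and 29.9% of all genes tested. With the size class term Krueppel homolog 1-like and MEF2 still passed. The log2 fold change of fruitless (LOC105185691) was −0.75, and −0.071 with the size class term, and its worker brains differed by library size, with 885, 677, 894 and 642 CPM in workers 1 to 4. Capicua, YAP1 and zinc finger protein 664-like did not meet the rule with TMM-scaled CPM. The higher one was Ets97D (LOC105180544), an ETS family factor, with 62.8, 63.2, 62.3 and 61.6 CPM in gamergate brains, 43.2, 38.01, 43.1 and 35.96 CPM in revertant brains and 42.2, 52.1, 44.7 and 50.04 CPM in worker brains. It rose in gamergate brains relative to revertant brains by a log2 fold change of 0.47 (adjusted p = 0.00105, edgeR), but with the size class term the adjusted p was 0.149. Zinc finger protein 664-like (LOC105187383) rested on few reads, with 2.83, 3.01, 0.556 and 0 CPM in gamergate brains.

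**Figure D3:**
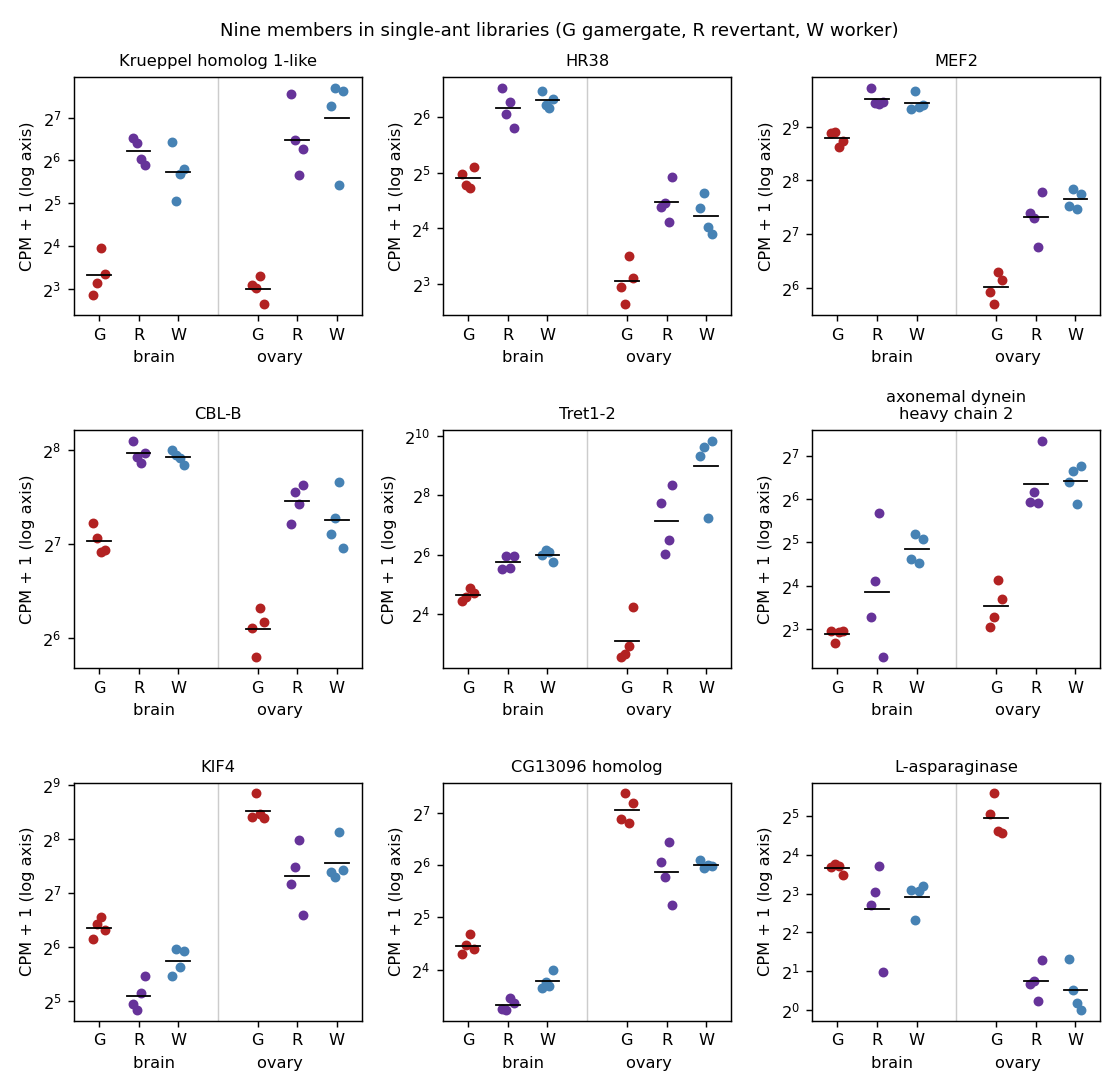
Levels of 9 genes in every library of gamergates (G), revertants (R) and workers (W) in brain and ovary, as CPM + 1 on a log axis; each point is 1 ant and each bar the mean on the log scale. Gamergate points lay below all worker points in the first 6 panels and above them in the last 3, while the 4 revertant brains for axonemal dynein heavy chain 2 and L-asparaginase overlapped both.

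Genes of intracellular signaling formed the largest group, with 20 protein kinases, small GTPases and their regulators, of which 19 lay lower in gamergates and 1, DEF6, lay higher. CBL-B (LOC105191070), an E3 ubiquitin ligase that marks activated receptor tyrosine kinases for degradation, had 148, 133, 119 and 121 CPM in gamergate brains, 272, 242, 231 and 249 CPM in revertant brains and 255, 245, 240.0 and 228 CPM in worker brains. In ovaries it had 67.6, 54.4, 78.8 and 70.7 CPM in gamergates, 147, 186, 170.0 and 197 CPM in revertants and 137, 154, 200.1 and 123 CPM in workers. The worker and revertant brains were nearly level and the gamergates lay apart, at a brain log2 fold change over revertants of −1.10 ± 0.09 (adjusted p = 6.55e-06, edgeR), and −0.79 with the size class term (adjusted p = 0.0286). MAP3K3 (LOC105189488), a kinase at the top of MAPK cascades, had 212, 239, 193 and 212 CPM in gamergate brains, 275, 466, 519 and 456 CPM in revertant brains and 577, 489, 639 and 498 CPM in worker brains. Its ovary level was 10.9, 8.78, 8.21 and 6.56 CPM in gamergates, 71.6, 15.4, 16.2 and 14.9 CPM in revertants and 30.95, 43.9, 75.8 and 49.9 CPM in workers. In brain, revertants 1, 2 and 4 lay between gamergates and workers, and revertant 3 lay inside the worker range. The kinase NLK (LOC105191859), which phosphorylates transcription factors of the Wnt and Notch pathways, had 53.2, 40.4, 53.4 and 48.5 CPM in gamergate brains, 103, 102, 94.5 and 112 CPM in revertant brains and 111, 82.4, 109 and 75.4 CPM in worker brains.

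The 19 lower signaling genes all fell in gamergate brains relative to revertant brains (edgeR), with log2 fold changes between −1.55 and −0.41 and a median of −0.82, and DEF6 rose by a log2 fold change of 0.47. All 19 passed the test as lower, as did 111 of the 112 lower genes of the set and 29.9% of all genes tested. The median over the 112 lower genes was −0.87. The groups did not overlap for 18 of the 19, as for 98 of the 112 lower genes and 16.9% of all genes. The largest was the catalytic subunit of the cAMP-dependent protein kinase (LOC105185095). It had 360.4, 384, 320.1 and 296 CPM in gamergate brains, 997, 872, 779 and 893 CPM in revertant brains and 820.4, 529, 815 and 458 CPM in worker brains, and workers 2 and 4, of the smaller libraries, lay nearest to the gamergates. Its log2 fold change of −1.55 ± 0.10 (adjusted p = 2.96e-06) was −0.58 with the size class term, no longer past the threshold. Neurofibromin (LOC105191746), the GTPase-activating protein that switches Ras off, had 239.9, 258, 275 and 227 CPM in gamergate brains, 327, 433, 430.2 and 379 CPM in revertant brains and 459.7, 302, 433 and 367 CPM in worker brains, with a log2 fold change over revertants of −0.82 and of −0.15 with the term. The group also held Src64B, a Src family kinase, vav, sprint and kalirin, activators of small GTPases, and wee1, a kinase that holds back mitosis.

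Receptors and channels of nerve cells were a further group of 7, all lower in gamergates in both tissues and all with a higher mean level in brain. Their brain log2 fold changes over revertants ranged from −1.36 to −0.75. All 7 passed the edgeR test, as did 111 of the 112 lower genes and, in this direction, 29.9% of all genes tested. Dopamine receptor 1 (LOC105182732) had 132, 120.4, 98.4 and 108 CPM in gamergate brains, 275, 275, 226 and 272 CPM in revertant brains and 230.4, 171, 208 and 167 CPM in worker brains. In ovaries it was near the floor, at 1.203, 1.31, 2.55 and 0.981 CPM in gamergates, 6.61, 5.01, 5.68 and 6.23 CPM in revertants and 7.14, 9.91, 2.79 and 11.8 CPM in workers, and it did not meet the rule with TMM-scaled CPM. The acetylcholine receptor subunit alpha-like 1 (LOC105191783), part of a ligand-gated cation channel, had 120.0, 133, 133 and 127 CPM in gamergate brains, 303, 303, 234 and 292 CPM in revertant brains and 240.3, 183, 245 and 158 CPM in worker brains. Its ovary levels were 0.506, 0.374, 0.754 and 0.905 CPM in gamergates, 8.42, 10.6, 4.08 and 35.96 CPM in revertants and 17.9, 24.1, 7.31 and 19.9 CPM in workers, so the separation was wider in the tissue where the gene was scarce. The A-type potassium channel Shal (LOC105191888) had 208, 227, 228 and 200.2 CPM in gamergate brains, 447, 494, 443 and 464 CPM in revertant brains and 481, 285, 489.6 and 271 CPM in worker brains. For both channels the worker brains split by library size, workers 2 and 4 lying closer to gamergates than workers 1 and 3. With the size class term the log2 fold change of Shal was −0.22 in place of −1.27, and that of the acetylcholine receptor subunit −0.56 in place of −1.32, neither past the threshold. The other members of this group were the acetylcholine receptor subunit alpha-7, the alpha-2 adrenergic receptor, the 5-hydroxytryptamine receptor 2B and the receptor of the neuropeptide CCHamide-1. The neuronal markers moved with this group in brain, where their sum was lower in every gamergate than in any other library. In ovary their sums overlapped between castes, at 394–471 CPM in gamergates, 411–624 CPM in revertants and 450–662 CPM in workers. The part of these markers was not tested.

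Notch (LOC105190346), the receptor of a short-range signal that controls cell fate in nervous system and ovary alike, was 1 of 5 other surface receptors, all lower in gamergates. It had 71.3, 74.7, 72.3 and 62.2 CPM in gamergate brains, 136, 154, 157 and 128 CPM in revertant brains and 164, 85.7, 169 and 82.9 CPM in worker brains. Gamergate ovaries had 208, 168, 234 and 195 CPM, revertant ovaries 338, 417, 325 and 538 CPM and worker ovaries 459.8, 520.3, 462 and 388 CPM. In brain, workers 2 and 4 lay just above the gamergates, and workers 1 and 3 lay above the revertants. The brain log2 fold change over revertants was −1.20 ± 0.09 (adjusted p = 3.35e-06, edgeR) and 0.021 with the size class term.

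Sugar transporters provided 3 of the lower genes, out of 8 on a list of sugar and trehalose transport genes with at least 5 CPM in both tissues. Tret1-2 (LOC105184288), a carrier of trehalose, the main blood sugar of insects, showed the widest ovary difference of all 150 genes. It had 4.81, 5.23, 6.57 and 17.7 CPM in gamergate ovaries, 214, 63.7, 88.7 and 322 CPM in revertant ovaries and 631, 790.0, 148 and 913 CPM in worker ovaries. Gamergate brains had 20.4, 22.9, 28.3 and 25.1 CPM, revertant brains 44.8, 60.7, 45.96 and 61.2 CPM and worker brains 62.9, 69.9, 66.95 and 52.3 CPM. Groups did not overlap between gamergates and the others in either tissue, and the brain log2 fold change over revertants was −1.30 ± 0.15 (adjusted p = 4.25e-05, edgeR), and −0.98 with the size class term (adjusted p = 0.0763). SWEET1 (LOC105181441), a sugar channel, was an exception among the revertants. Its brain level was 25.5, 24.7, 26.1 and 19.4 CPM in gamergates, 16.3, 30.04, 23.4 and 23.6 CPM in revertants and 33.5, 36.9, 33.4 and 37.3 CPM in workers, so that the revertants lay with the gamergates. The log2 fold change of gamergates over revertants, −0.14 ± 0.19, did not pass the test (adjusted p = 0.528). In ovary SWEET1 had 6.14, 6.54, 6.53 and 6.26 CPM in gamergates, 19.8, 15.2, 14.02 and 22.1 CPM in revertants and 16.7, 19.8, 11.2 and 28.99 CPM in workers, with revertants among the workers. Glucose transporter type 1 (LOC105189264) differed less, with 381, 392, 341 and 350.2 CPM in gamergate brains, 465, 462, 392 and 435 CPM in revertant brains and 435, 440.2, 438 and 451 CPM in worker brains, and did not meet the rule with TMM-scaled CPM. The catalytic alpha subunit of the sodium pump (LOC105182517) was the most abundant of the 150 genes in brain, at 1282, 1327, 1349 and 1104 CPM in gamergates, 2076, 2079, 2045 and 2417 CPM in revertants and 2002, 1684, 1852 and 1435 CPM in workers.

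Axonemal dynein heavy chain 2 (LOC105189200), a motor of cilia and sperm tails, had the largest smaller gap of all. It had 6.79, 5.42, 6.67 and 6.85 CPM in gamergate brains and 23.8, 35.6, 21.98 and 32.9 CPM in worker brains, while the revertant brains were scattered over 8.82, 16.4, 50.4 and 4.13 CPM. In ovaries the levels were 7.28, 8.78, 16.6 and 11.99 CPM in gamergates, 60.1, 70.1, 59.1 and 161 CPM in revertants and 82.7, 98.6, 57.7 and 107 CPM in workers. Revertant brain 4 lay below every gamergate and revertant brain 3 above every worker. The brain log2 fold change over revertants of −1.80 ± 0.71 was just past the threshold (adjusted p = 0.0474, edgeR) and was not past it in any of the 4 fits that left out a gamergate (−1.82 to −1.70), nor without revertant 2 (−1.88) or revertant 3 (−0.87). Glucose dehydrogenase (LOC105183526), an oxidoreductase, had 1.13, 1.204, 0.556 and 1.14 CPM in gamergate brains, of which the lowest was a single read, 5.98, 14.1, 11.2 and 15.8 CPM in revertant brains and 11.8, 3.295, 13.4 and 2.24 CPM in worker brains. Its brain gap rested on few reads, 2, 2, 1 and 2 in gamergates and 5 and 3 in workers 2 and 4, and the worker brains split by library size. The brain log2 fold change over revertants of −3.67 (adjusted p = 6.98e-05, edgeR) was −1.27 with the size class term (adjusted p = 0.468). The heparan sulfate 3-O-sulfotransferase 5 (LOC105192616), which modifies cell surface proteoglycans, had 28.3, 27.7, 16.1 and 25.1 CPM in gamergate brains, 89.1, 128, 121 and 118 CPM in revertant brains and 139, 63.3, 143 and 61.2 CPM in worker brains, and the worker brains again split by size. The sulfotransferase did not meet the rule with TMM-scaled CPM. It was 1 of 11 cell surface and matrix genes, which included both ADAM10 genes, papilin, glypican-6 and a collagen chain. The 11 passed the edgeR test as lower in gamergate than in revertant brains. So did 111 of the 112 lower genes of the set and 29.9% of all genes tested.

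UNC93-like protein (LOC105188880) had 1.65, 2.62, 1.26 and 1.89 CPM in gamergate ovaries, 37.3, 12.3, 12.95 and 19.7 CPM in revertant ovaries and 56.6, 93.04, 7.05 and 111 CPM in worker ovaries. Its brain levels were 5.66, 7.23, 7.23 and 4.56 CPM in gamergates, 11.4, 15.8, 11.04 and 19.2 CPM in revertants and 14.01, 10.5, 10.9 and 14.2 CPM in workers. Croquemort (LOC105186301), a scavenger receptor of Drosophila hemocytes, had 92.8, 105, 111 and 119.8 CPM in gamergate brains, 185, 175, 164 and 175 CPM in revertant brains and 179, 153, 157 and 135 CPM in worker brains. It was 1 of 2 hemocyte markers, which summed to 257–298 CPM in gamergate brains, 290–314 CPM in revertant brains and 293–338 CPM in worker brains, and it did not meet the rule with TMM-scaled CPM. Purity of essence (LOC105190381), a large protein of the ubiquitin system, was the most abundant of the 150 genes in ovary, at 770.4, 729, 912 and 775 CPM in gamergates, 1184, 2208, 2217 and 1321 CPM in revertants and 1593, 1286, 1904 and 1428 CPM in workers.

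Genes higher in gamergates were fewer and their median differences smaller. Several act in DNA replication and cell division. KIF4 (LOC105185933), a kinesin that moves along mitotic chromosomes, had 69.6, 84.3, 93.4 and 78.2 CPM in gamergate brains, 29.7, 27.5, 34.5 and 42.8 CPM in revertant brains and 43.2, 61.3, 48.3 and 59.7 CPM in worker brains. In ovaries it had 335, 456, 352 and 333 CPM in gamergates, 142, 177, 251 and 94.9 CPM in revertants and 166, 156, 278 and 169.6 CPM in workers. Gamergates exceeded every other library of either tissue, and revertant brains lay below the lowest worker brain. The brain log2 fold change over revertants was 1.13 ± 0.13 (adjusted p = 5.25e-05, edgeR) and 0.97 with the size class term, where the test missed the threshold (adjusted p = 0.0592). The inner centromere protein (LOC105188394), a subunit of the complex that corrects chromosome attachment, was the most abundant of the 38 higher genes in brain. It had 191, 189.7, 221 and 199 CPM in gamergate brains, 104, 98.6, 116 and 108 CPM in revertant brains and 109, 156, 129 and 179 CPM in worker brains, and worker brains 2 and 4 lay closest to the gamergates. DNA primase small subunit (LOC105184148), which makes the primers of DNA synthesis, had 76.95, 81.9, 81.7 and 74.7 CPM in gamergate brains, 48.6, 53.6, 58.1 and 38.9 CPM in revertant brains and 54.2, 63.9, 56.8 and 61.2 CPM in worker brains. Its ovary levels were 109.8, 115, 109 and 118 CPM in gamergates, 40.3, 64.8, 69.9 and 43.2 CPM in revertants and 68.2, 65.9, 57.3 and 62.8 CPM in workers. Together with replication factor C subunit 2 and DNA polymerase eta, 5 higher genes of this kind rose in gamergate brains relative to revertant brains, by log2 fold changes between 0.49 and 1.13. All 5 passed the edgeR test, as did 32 of the 38 higher genes and, in this direction, 27.4% of all genes tested. A homolog of fizzy-related, which activates the ubiquitin ligase that ends mitosis, and the kinase wee1 also act in the cell cycle and lay on the lower side, with log2 fold changes of −0.89 and −0.51. The fizzy-related homolog did not meet the rule with TMM-scaled CPM.

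Genes of the nucleolus, RNA processing and RNA binding lay on both sides, 7 higher and 5 lower in gamergates. The homolog of CG13096 (LOC105192523), a protein with a ribosomal L1 domain, had 18.7, 21.1, 24.5 and 19.97 CPM in gamergate brains, 8.52, 8.36, 9.998 and 9.23 CPM in revertant brains and 11.6, 12.5, 11.9 and 14.9 CPM in worker brains. Gamergate ovaries had 116, 164, 111 and 145 CPM, revertant ovaries 65.5, 53.4, 85.9 and 36.4 CPM and worker ovaries 67.3, 60.3, 62.9 and 61.7 CPM. The brain log2 fold change over revertants was 1.06 ± 0.15 (adjusted p = 0.000138, edgeR), and 1.08 with the size class term (adjusted p = 0.0636). Nucleolar protein 12 (LOC105188936) had 22.6, 30.7, 34.5 and 29.7 CPM in gamergate brains, 13.3, 12.9, 13.3 and 17.5 CPM in revertant brains and 11.2, 19.1, 14.7 and 14.9 CPM in worker brains. Pitchoune (LOC105185638), a DEAD-box helicase of the nucleolus that Myc controls in Drosophila, reached 451, 556, 418 and 446 CPM in gamergate ovaries, 122, 236, 308 and 92.5 CPM in revertant ovaries and 278, 179, 261 and 152 CPM in worker ovaries. In brain it was at 20.9, 22.3, 27.2 and 20.5 CPM in gamergates, 11.2, 13.2, 14.2 and 13.1 CPM in revertants and 14.2, 19.1, 13.4 and 16.4 CPM in workers. The other higher ones were BUD13 and WW domain-binding protein 4, both of the spliceosome, GLE1 of mRNA export and the p21 subunit of ribonuclease P. The 7 rose in gamergate brains relative to revertant brains, by log2 fold changes between 0.24 and 1.06. All 7 passed the edgeR test, as did 32 of the 38 higher genes and, in this direction, 27.4% of all genes tested. The 5 lower ones were hnRNP 27C, the Musashi homolog 2, held out wings, the DEAD-box RNA helicase 20 and the serine/arginine repetitive matrix protein 2. They fell by log2 fold changes between −1.22 and −0.56. All 5 passed the edgeR test, as did 111 of the 112 lower genes and, in this direction, 29.9% of all genes tested. At least hnRNP 27C and the DEAD-box RNA helicase 20 did not meet the rule with TMM-scaled CPM.

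Of the remaining higher genes, 4 are described here. L-asparaginase (LOC105188655), which splits asparagine into aspartate and ammonia, had 32.3, 47.1, 23.5 and 22.6 CPM in gamergate ovaries, 0.601, 0.677, 0.177 and 1.44 CPM in revertant ovaries and 1.49, 0.431, 0.133 and 0 CPM in worker ovaries. In brain it had 11.9, 12.7, 12.2 and 10.3 CPM in gamergates, 5.53, 7.28, 12.1 and 0.972 CPM in revertants and 7.51, 3.95, 7.33 and 8.22 CPM in workers. The revertant brains ran from below the workers up to the gamergate range, and the log2 fold change of gamergates over revertants, 0.64 ± 0.47, did not pass the test (adjusted p = 0.259). Aminopeptidase N (LOC105188810), a membrane peptidase, had 426, 555, 430.0 and 389 CPM in gamergate ovaries, 13.8, 66.3, 142 and 10.1 CPM in revertant ovaries and 13.99, 18.1, 225 and 16.6 CPM in worker ovaries. Its brain levels were 12.5, 16.9, 12.2 and 12.6 CPM in gamergates, 7.92, 7.74, 7.76 and 4.86 CPM in revertants and 8.93, 6.59, 7.83 and 10.5 CPM in workers. Both of these enzymes differed more in ovary than in brain. The uncharacterized gene LOC105189872 had the largest smaller gap among higher genes, with 11.3, 18.1, 10 and 19.97 CPM in gamergate brains, 10.9, 1.32, 1.94 and 0.729 CPM in revertant brains and 1.22, 1.98, 1.01 and 7.47 CPM in worker brains. Its revertant 1 brain lay within the gamergate range, and its brain log2 fold change over revertants of 1.80 ± 0.68 (adjusted p = 0.0401, edgeR) was 0.040 with the size class term and, without any 1 of gamergates 1, 2 and 4 or revertants 2, 3 and 4, was 1.45 to 1.91 and not past the threshold. A further uncharacterized gene, LOC105192125, had 10.8, 6.62, 7.78 and 5.704 CPM in gamergate brains, 12.4, 4.96, 4.48 and 12.4 CPM in revertant brains and 3.05, 4.61, 1.26 and 2.24 CPM in worker brains. Revertants 1 and 4 lay above every gamergate. Revertants 2 and 3 lay below every gamergate, and revertant 3 was inside the worker range.

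Lists of genes by function, matched to protein names, placed these genes beside their pathways. The names came from tables sorted by differences in brain and covered 2574 of the 7785 genes, so the lists are not independent of the brain result. Of the 2574 named genes, 144 were members, and 8 of the 17 lists held a member. Their counts stand against 27.4% of all 8987 genes called higher and 29.9% called lower. In these counts, rose and fell mean called at an adjusted p under 0.05 in edgeR. In the brain comparison of gamergates with revertants, 0 of 9 sugar and trehalose transport genes rose and 7 fell, with a median log2 fold change of −1.30. The list of neuropeptides and their receptors had 1 of 14 higher and 13 lower, and HR38 was caught by it only through the words hormone receptor. Of 8 juvenile hormone and ecdysone genes, 1 rose and 3 fell. Of 5 genes of the MAPK cascade, 3 rose and 2 fell, with a median of 0.45, although the member MAP3K3 fell. Of 52 zinc finger proteins, 25 rose and 25 fell, and of 36 genes of chromatin and histones, 22 rose and 10 fell. On the higher side, 29 of 31 genes of ribosome biogenesis and the nucleolus rose and 2 fell, and nucleolar protein 12 was the member. Of 15 heat shock and chaperone genes 13 rose and 1 fell, and DNAJC2, a chaperone at the ribosome, was the member. Cytosolic ribosomal proteins gave no member, although 16 of the 41 with at least 5 CPM lay higher in gamergate than in all worker brains, since 0 of them lay higher in gamergate ovaries. No member belonged to the lists of insulin and TOR signaling, cytochrome P450, fatty acid and hydrocarbon synthesis or odorant reception. These held only 8, 14, 10 and 2 genes of at least 5 CPM in both tissues. With 144 members among 2574 named genes, lists this short can hold none, so the absence is not a result about these pathways.

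The 4 revertant brains were the libraries that the choice of genes had not used. Gamergate brains lay beyond all revertant brains, in the direction of the rule, for 34 of the 38 higher genes and 98 of the 112 lower genes. Over the 7785 genes the same was true of 37.6% in the higher and of 16.9% in the lower direction. In the edgeR test, 32 of the 38 higher and 111 of the 112 lower genes passed in those directions between gamergate and revertant brains. The shares of all 8987 genes tested that passed were 27.4% in the higher and 29.9% in the lower direction. Genes that met the brain part of the rule with overlapping ovaries came close to these shares, with 155 of 193 higher (80.3%) and 148 of 187 lower (79.1%) beyond all revertant brains. Since the gamergate brains had been chosen to lie at one end, a high share was favored in all these sets. The 7 members that did not pass were SWEET1, L-asparaginase, LOC105192125, ANKZF1, the ligand of neuronal nitric oxide synthase CAPON, L-galactose dehydrogenase and LOC105191735.

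Relative to workers, revertant brains gave a median difference of −0.19 on the log2(CPM + 1) scale for the higher genes, where gamergates had 0.51, and of 0.11 for the lower genes, where gamergates had −0.55. On this scale the median over all genes of at least 5 CPM in both tissues was itself −0.197 to −0.090 in the revertant brains. In the edgeR fit, which uses TMM, the median log2 fold change of revertants over workers was −0.055 for higher and 0.202 for lower members. In the edgeR test of revertant against worker brains, 0 of 149 members passed (0% of all 9360 genes), and DESeq2 also called 0 members. At an unadjusted p under 0.05 in edgeR there were 4 of 37 higher and 20 of 112 lower members, against 1521 of all 9360 genes. In ovary, 0 of 149 members passed between revertants and workers (0% of all 8667 genes), and DESeq2 called 0. There 1 of 37 and 5 of 112 had an unadjusted p under 0.05 in edgeR, against 377 of all 8667 genes. Missing the threshold does not show that revertants and workers were equal. Revertant brains lay beyond all workers on the gamergate side for 0 higher and 5 lower genes, and beyond them on the far side for 3 higher and 6 lower genes. For genes that met the brain part of the rule with overlapping ovaries, the gamergate side held 9 of 193 higher and 10 of 187 lower genes. The far side held 19 and 16 of them. The share over all genes is not given here.

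**Figure D4:**
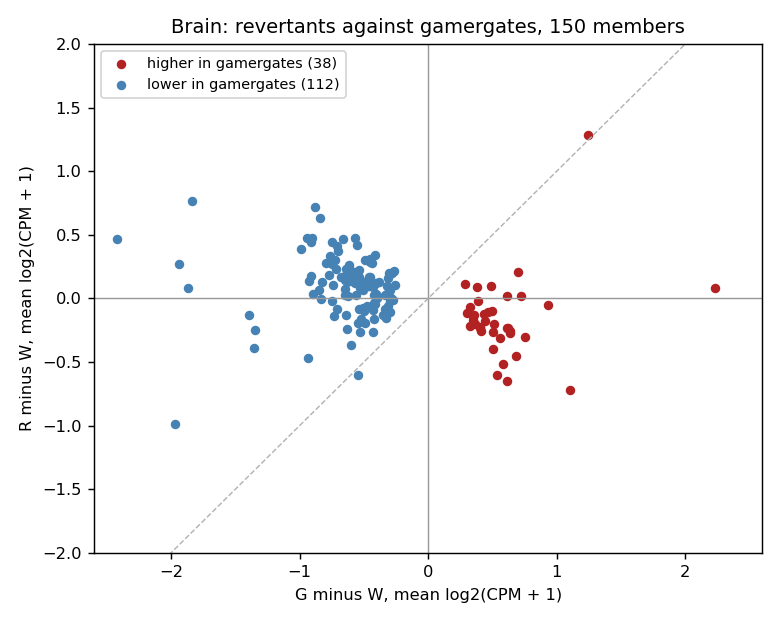
Difference of revertants (R) from workers (W) in brain (vertical axis) against that of gamergates (G) from workers (horizontal axis), as differences of means of log2(CPM + 1) over 4 libraries each; each point is 1 of the 150 genes and the dashed line marks equal differences. The points clustered about 0 on the vertical axis, with medians of −0.19 for the 38 red and 0.11 for the 112 blue genes, and 1 red point, LOC105192125, and 1 blue point, SWEET1, lay on or near the dashed line.

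Size of the libraries ran with this comparison, since every gamergate brain was small and every revertant brain large, so the castes cannot be told apart from library size except through the workers. In a fit of all 12 brain libraries with size class as a term, 0 higher and 6 lower members passed, against 0.798% of all 9148 genes. The 6 were Krueppel homolog 1-like, CBL-B, MEF2, glypican-6, the solute carrier SLC41A1 and the uncharacterized LOC105182829. The direction was kept for 37 of the 38 higher and 109 of the 112 lower genes, with median log2 fold changes of 0.50 in place of 0.47 and of −0.31 in place of −0.87. Between gamergates and the 2 small worker brains the median difference on the log2(CPM + 1) scale was 0.39 for higher and −0.42 for lower genes, and between gamergates and the 2 large ones it was 0.61 and −0.68. In ovary, where all gamergate libraries were large, the medians for the lower genes were −1.15 against the 2 large revertants and −1.60 against the 2 small ones, and −1.09 against the 1 large worker and −1.44 against the 3 small ones.

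**Figure D5:**
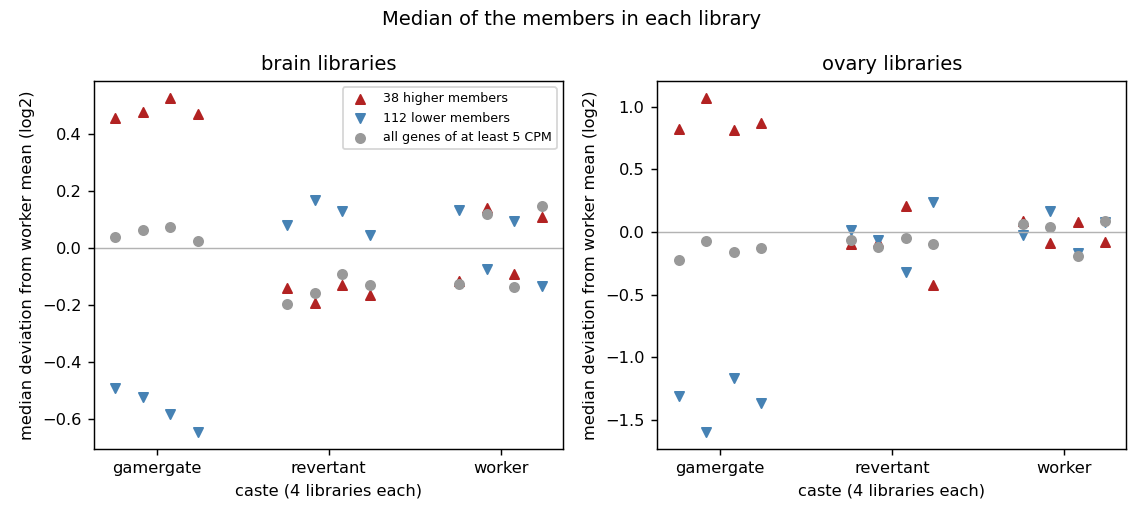
Median over the 38 higher (red), the 112 lower (blue) and all 7785 genes (gray) of the deviation of each library from the worker mean on the log2(CPM + 1) scale, for brain (left) and ovary (right), with 4 libraries per caste. Gamergate brains lay at 0.46 to 0.53 for the higher and −0.65 to −0.49 for the lower genes, worker brains 1 and 3 lay opposite to workers 2 and 4, and gray points followed the red ones among revertants and workers in brain.

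Per library, the higher genes had a median deviation from the worker mean of 0.46 to 0.53 in gamergate brains, −0.19 to −0.13 in revertant brains and −0.12 to 0.14 in worker brains. For the lower genes the median was −0.65 to −0.49 in gamergate brains, 0.045 to 0.17 in revertant brains and −0.13 to 0.13 in worker brains. In ovary the higher genes had medians of 0.81 to 1.07 in gamergates, −0.42 to 0.21 in revertants and −0.09 to 0.09 in workers, and the lower genes had −1.59 to −1.17 in gamergates, −0.32 to 0.24 in revertants and −0.16 to 0.17 in workers. Gamergate ovary 2, the smallest gamergate ovary library, lay farthest out in both directions.

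At the limit of the set, the last genes inside were the uncharacterized LOC105185655 and LOC105182323, with smaller gaps of 0.0732 and 0.0726, and the first outside were the KBP homolog LOC105187584 (0.0725) and the sodium pump subunit beta-2 LOC105190742 (0.0724). LOC105182323 had 11.3, 7.83, 8.34 and 10.8 CPM in gamergate brains and 2.84, 7.25, 2.27 and 4.48 CPM in worker brains, and 8.29, 11.95, 6.83 and 11.1 CPM in gamergate ovaries, 6.01, 5.14, 3.73 and 5.75 CPM in revertant ovaries and 5.66, 6.03, 5.19 and 6.44 CPM in worker ovaries. LOC105187584 had 19.8, 21.1, 20.6 and 16.5 CPM in gamergate brains and 7.104, 14.5, 5.31 and 15.7 CPM in worker brains. The limit thus fell among genes whose groups nearly touched.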

How the data were processed

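The authors prepared strand-specific polyA libraries from single ants, sequenced them on an Illumina HiSeq and aligned the reads with STAR to version 8.5 of the Harpegnathos genome. The STAR version is 2.5.3a in the submitters' processing notes, which also name Trimmomatic and edgeR. The paper's methods name a different STAR version. The counting program, the annotation, the use of strand and the treatment of reads with several matches are not given in the sources used here, so reads shared by paralogs or overlapping genes could be split. The deposited values are raw read counts per gene. The tables of brain and ovary were used, 24 libraries in all, and fat body was not analysed here. All 24 columns matched a sample. No 2 columns were identical. The brain libraries carried 1 lane label and the ovary libraries another, so every test was made within a tissue, and tissue and lane cannot be told apart where levels in brain and ovary are set side by side.

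CPM were counts divided by the column total, and log2(CPM + 1) used a pseudocount of 1. Caste pairs were fitted with edgeR 4.0.16 (TMM, filterByExpr, quasi-likelihood test, Benjamini-Hochberg adjustment over all genes kept, threshold 0.05) in R 4.3.3, with DESeq2 1.42.0 as an alternative. The standard error of a log2 fold change is its size divided by the square root of F. Of the 150 members, 150 were kept in the brain fit of gamergates and revertants and 149 in each fit of revertants and workers. On simulated counts the step recovered 177 of 192 changed genes for gamergate against revertant brains, 174 of 196 for revertant against worker brains and 112 of 195 for revertant against worker ovaries. The simulated log2 fold changes were at least 1 in size, and library size class had no effect in them. This recovery therefore does not measure how often smaller differences would be found. The contrasts that chose the genes were also fitted, but none of their p-values is given, and they serve only in 1 stricter form of the rule among the alternatives. Libraries were called small or large by a limit of 3500000 counts, set after the totals were known. The members, the lists and the tests were chosen with earlier results of these data known.

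Genes were named by rule: in each direction the 10 named members and the 5 members of any kind with the largest smaller gaps, up to 4 members of each list, the 2 most abundant in each tissue, and the 2 genes on each side of the limit. Pointed, fruitless, Ets97D, Notch, dopamine receptor 1, both acetylcholine receptor subunits, Shal, neurofibromin, the sulfotransferase and the kinase subunit were named after their values were seen, as were the genes listed without values. Protein names came from supplementary tables of the study, used for names only. Of the 150 genes, 144 had an entry there and 121 had a name other than uncharacterized. Alternatives were other scalings and filters, DESeq2, a replicate block, 1 fit of 3 castes, a size class term, thinning and leaving out each library. p-values measure the spread between single ants. A count of 0 allows up to 3 reads, which is 1.81 CPM in the smallest gamergate brain library and covers counting error only.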

Additional observations from a re-analysis of the deposited data

Results flagged for a closer look

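In each caste and tissue, the 22 leading genes and the library medians were searched for a single library apart from the other 3 by more than Dixon's 95% critical value. Of 144 groups 14 held such a library, where chance gives about 5%. Among higher genes, LOC105189872 reached 227 CPM in gamergate ovary 2, L-asparaginase (LOC105188655) was at 3.95 CPM in worker brain 2, and nucleolar protein 12 (LOC105188936) was at 17.5 CPM in revertant brain 4 and at 20.7 CPM in revertant ovary 2. Aminopeptidase N (LOC105188810) stood apart at 16.9 CPM in gamergate brain 2, at 4.86 CPM in revertant brain 4 and at 225 CPM in worker ovary 3, where KIF4 (LOC105185933) was also apart at 278 CPM. Worker ovary 3, the largest worker ovary library, was thus the nearest to the gamergates for both genes.

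Among lower genes, axonemal dynein heavy chain 2 (LOC105189200) was at 5.42 CPM in gamergate brain 2 and at 161 CPM in revertant ovary 4. Glucose dehydrogenase (LOC105183526) was at 0.556 CPM, a single read, in gamergate brain 3 and at 15.03 CPM in worker ovary 4. MEF2 (LOC105192578) was at 841 CPM in revertant brain 1, and MAP3K3 (LOC105189488) at 71.6 CPM in revertant ovary 1, inside the worker range while the other revertant ovaries lay below it. No cause of these values was tested.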

How the results depend on the processing

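The number of members called between gamergate and revertant brains was 143 and stayed between 134 and 143 under the other scalings, filters, tools and designs, except with library size class as a term, where it was 6. Leaving out 1 library gave 138 to 143. With the replicate number as a block it was 142. The labels do not tie the numbers to a shared animal or batch, and the samples were treated as unpaired because in no comparison did all 4 same-numbered pairs of deviations correlate above 0.1. The correlations ran from −0.04 to 0.018 for gamergate and revertant brains, from −0.134 to 0.108 for gamergate and revertant ovaries and from −0.102 to 0.155 for revertant and worker brains. For revertant and worker ovaries they were 0.277, −0.204, 0.502 and 0.435, so 3 of the 4 pairs were above 0.1, and 5 of the 8 libraries correlated best with their own number. For revertants against workers the count was 0 in brain and 0 in ovary under every alternative, including the block and, chosen after seeing the data, fits of the large brain libraries or the small ovary libraries alone, and 0 when any 1 library was left out. The number of genes that met the rule was 259, between 202 and 298 under other CPM minimums, TMM scaling (244) and thinning to the smallest library (202), and 24 when an adjusted p under 0.05 between gamergate and worker brains was also asked. Leaving out 1 library, which loosens the rule, gave 258 to 491, the highest without worker brain 4. Among log2 fold changes of named genes between gamergate and revertant brains, 732 of the alternative values kept direction and call, 57 kept direction but lost the call, 41 of them with the size class term, 3 gained it, and that of Notch turned to 0.021 with the size class term. The cause was not tested. Depth limits low genes, of which 21 had under 10 reads in a library.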
